A study of Mus musculus with 14 samples.

Results

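The imiquimod response of Nedd8 knockout skin was measured in 5 of the 14 libraries of a mouse skin study. The members are 2 libraries of knockout skin treated with imiquimod and 3 of knockout skin treated with DMSO, taken by their column names and compared across 16027 genes that passed a filter on low counts, of 56953 in the table. Knockout mice carried the genotype NEDD8fl/fl, K14-CreERT pos, in which loxP-flanked Nedd8 can be cut out by a Cre recombinase that the keratin 14 promoter makes in basal keratinocytes and their progeny; dermal, immune and other cells keep the gene. A pair of library sets stands beside them: Cre-negative skin (NEDD8fl/fl, K14-CreERT neg), which has the loxP sites and lacks the recombinase, with 2 imiquimod and 3 DMSO libraries, and wild-type C57BL/6J skin with 2 of each. Per the labels, Aldara cream with 5% imiquimod was put on daily from day 0 to day 7, and the deletion was induced on 5 consecutive days before that. The cream went on the shaved back or the right ear, and the labels do not say which library came from which site. They also give no age, no animal for a library, and no group with the cream base alone, and the series' design text describes a NEDD8 inhibitor in wild-type skin instead of this experiment. All p-values therefore measure the spread between libraries, and the drug cannot be told apart from the rest of the cream.

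Imiquimod activates Toll-like receptor 7 (TLR7) in plasmacytoid dendritic cells and macrophages, and on mouse skin it is a standard way to raise a psoriasis-like inflammation, in which IL-23 and IL-17 drive neutrophils into the skin and switch keratinocytes to wound keratins, small proline-rich proteins and alarmins. NEDD8 is a ubiquitin-like protein whose attachment to cullins turns on cullin-RING ubiquitin ligases. Among the proteins these ligases mark for destruction are the inhibitors of NF-kB, the antioxidant regulator NRF2 and cell cycle inhibitors.

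The 14 libraries held 5552954 to 34362477 counts each, and the knockout ones 13149797 and 10068739 with imiquimod against 5552954, 9814586 and 34362477 with DMSO. Levels are in CPM, counts relative to the library total after TMM scaling, and fold changes are log2, imiquimod over DMSO, with a standard error after ±. The targeted gene Nedd8 had 308 and 150.5 CPM in knockout imiquimod skin, against 375, 158 and 147 CPM in knockout DMSO skin (0.02 ± 0.45, adjusted p = 0.985), a difference of 3.10 CPM between means of 229 and 226 CPM (two-sided exact permutation p = 0.9, where 0.1 is the smallest this design allows). In Cre-negative skin it had 314 and 461 CPM with imiquimod and 359.5, 289.7 and 291 CPM with DMSO, so the ranges of knockout and Cre-negative libraries overlapped, and a 3′ tag in whole skin does not check the deletion in keratinocytes. Read from Xist and Y-linked counts, both knockout imiquimod libraries were male and all 3 knockout DMSO libraries female, so sex and treatment cannot be told apart within knockout skin. The first knockout DMSO library was the shallowest of the 14, with 17.5% of its counts on the 18S ribosomal RNA gene Rn18s-rs5, against 3.84% to 9.13% in the other 4 knockout libraries.

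Imiquimod raised more genes than it lowered in knockout skin. Of the 16027 genes, 1372 rose (8.56%) and 404 fell (2.52%) at an adjusted p under 0.05, which makes 11.1% in all (edgeR's quasi-likelihood test, Benjamini-Hochberg adjustment). Among those, 982 rose more than 4-fold and 116 fell more than 4-fold, while the median over all genes was -0.04. Scaled by library size alone, which moves that median to 0.12, 1429 rose and 186 fell. The 10 highest fold changes among the genes named by rule were those of Ngp, Ltf, Ly6a2, Ppm1n, Ifitm6, Nos2, Cd177, Scrg1, Fpr1 and Retnlg, and the 10 lowest those of Rps13-ps1, Flg2, Krt15, Rps15a-ps6, S1pr5, Fut1, Phyhip, Rps15a-ps7, Cst6 and Tslp. Those 20 were named for groups that do not overlap, which is common here: both imiquimod libraries lay above every DMSO library in 22.5% of all genes and below in 18.9%. Without the first imiquimod library, which leaves 1 imiquimod library whose spread is assumed to be like that of the other groups, 324 genes rose and 15 fell. Of the 1776 calls 331 were then kept, with all 1769 that had a value moving the same way. Without the third DMSO library, the deepest, 665 rose and 167 fell. With sex in the model 206 rose and 4 fell, 208 of the 1776 calls were kept and 1759 kept their direction. Only the Cre-negative DMSO group held both sexes, with 1 female library, so the sex term cannot be told from that library's own variation. Every call kept or lost with sex in the model rests on it. The 1776 calls were made with these same libraries, so a kept direction in such refits is no separate evidence. Single genes described below kept their calls without any 1 knockout library unless a sentence says otherwise. Most lost them with sex in the model, and those that did not are named. The genes under other observations at the end were not followed in these settings. Counts of list members that rose or fell are to be read beside the 8.56% and 2.52% of all genes.

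**Figure D1:**
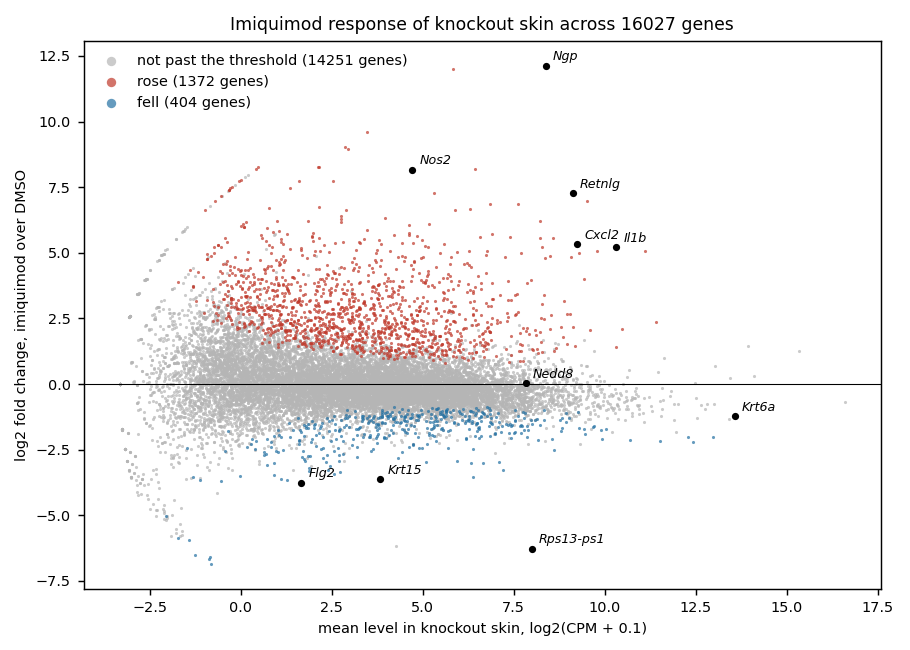
Log2 fold change (imiquimod over DMSO, vertical) against mean level in knockout skin (log2 CPM plus 0.1, horizontal), each point 1 of 16027 genes. The 1372 genes that rose (red) reach larger changes than the 404 that fell (blue), and Nedd8 lies at zero change.

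Ngp had the highest change of the named genes. Ngp, a cathelicidin-related protein of neutrophil secondary granules (chr9:110248815-110252080, GRCm39), had 1145 and 188 CPM in knockout imiquimod skin, against 0, 0.485 and 0.0282 CPM in knockout DMSO skin (12.13 ± 1.24, adjusted p = 1.01e-04). Both imiquimod libraries stood far above all 3 DMSO libraries, and the first was the higher of the pair. Retnlg, a resistin-like protein of neutrophils (chr16:48692984-48694859), had 1416 and 788 CPM with imiquimod, against 1.53, 16.7 and 2.73 CPM with DMSO (7.27 ± 0.90, adjusted p = 2.85e-04). Ifitm6, an interferon-inducible membrane protein of myeloid cells, had 276 and 65 CPM with imiquimod, against 0.255, 0.971 and 0.451 CPM with DMSO (8.18 ± 0.66, adjusted p = 2.78e-05). Retnlg and Ifitm6 also kept their calls with sex in the model. Fpr1, the formyl peptide receptor that guides neutrophils to bacterial peptides, had 94.1 and 61.7 CPM with imiquimod and 0.255, 0.485 and 0.564 CPM with DMSO (7.28 ± 0.53, adjusted p = 4.38e-05). Nos2, the inducible nitric oxide synthase of activated macrophages, had 69.4 and 34.4 CPM with imiquimod and 0, 0.582 and 0.0282 CPM with DMSO (8.16 ± 0.90, adjusted p = 2.59e-04).

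The other 5 of the 10 highest had 1 or 2 counts in all 3 knockout DMSO libraries together, so their ratios are given with a 95% exact interval that covers counting error only. Ltf, the lactoferrin of neutrophil granules, had 40.7 and 2.92 CPM with imiquimod and 0, 0 and 0.0282 CPM with DMSO, a ratio of 1150 (95% interval 206 to 45700) and an adjusted p of 4.17e-04. The first imiquimod library was again the higher one. Cd177, a neutrophil surface protein, had 8.45 and 3.19 CPM with imiquimod and 0, 0 and 0.0282 CPM with DMSO, a ratio of 299 (95% interval 52.8 to 11900). Ly6a2, Scrg1 and Ppm1n had ratios of 744 (95% interval 133 to 29500), 296 (95% interval 81.1 to 2450) and 413 (95% interval 73.2 to 16400). All 5 passed the threshold, at adjusted p-values of 1.68e-04 to 9.91e-04.

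Krt15, a keratin of basal keratinocytes and hair follicle stem cells (chr11:100022584-100026754), had 2.36 and 1.86 CPM with imiquimod, against 17.3, 29.8 and 31 CPM with DMSO (-3.63 ± 0.44, adjusted p = 2.59e-04), and it kept its call in every library left out and with sex in the model. S1pr5, a sphingosine-1-phosphate receptor, had 0.989 and 0.974 CPM with imiquimod and 11.7, 5.43 and 14.8 CPM with DMSO (-3.43 ± 0.48, adjusted p = 6.38e-04). Fut1, a fucosyltransferase, had 0.761 and 1.5 CPM with imiquimod and 19.9, 6.99 and 9.1 CPM with DMSO (-3.37 ± 0.53, adjusted p = 0.00128). Flg2, a filaggrin-like protein of the cornified layer, fell by 3.77 ± 0.81 (adjusted p = 0.00921), Cst6, a cystatin that holds cornification proteases in check, by 3.27 ± 0.61 (adjusted p = 0.00374), and Tslp, the keratinocyte cytokine of type 2 inflammation, by 3.21 ± 0.66 (adjusted p = 0.00696). Without the first imiquimod library these 3 changes were -3.41, -2.88 and -2.88 and no longer passed. Phyhip, at -3.32, also lost its call without that library (-2.67) or without the third DMSO library (-2.77).

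The other 3 of the 10 lowest were pseudogenes of ribosomal protein genes, whose reads cannot be told from those of near-identical copies. Rps13-ps1 had 8.29 and 4.61 CPM with imiquimod, against 11.7, 737 and 758 CPM with DMSO (-6.28 ± 1.24, adjusted p = 0.00563). The fall rested on the second and the third DMSO libraries, since the first lay near the imiquimod libraries and near the 7.89 and 7.67 CPM of Cre-negative imiquimod skin. Rps15a-ps6 and Rps15a-ps7 had the same 2 libraries high, with changes of -3.53 and -3.29. Without the first imiquimod library the 3 pseudogenes were at -6.78, -3.21 and -3.19 and none passed, and Rps15a-ps7 also failed without the second (-3.41).

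**Figure D2:**
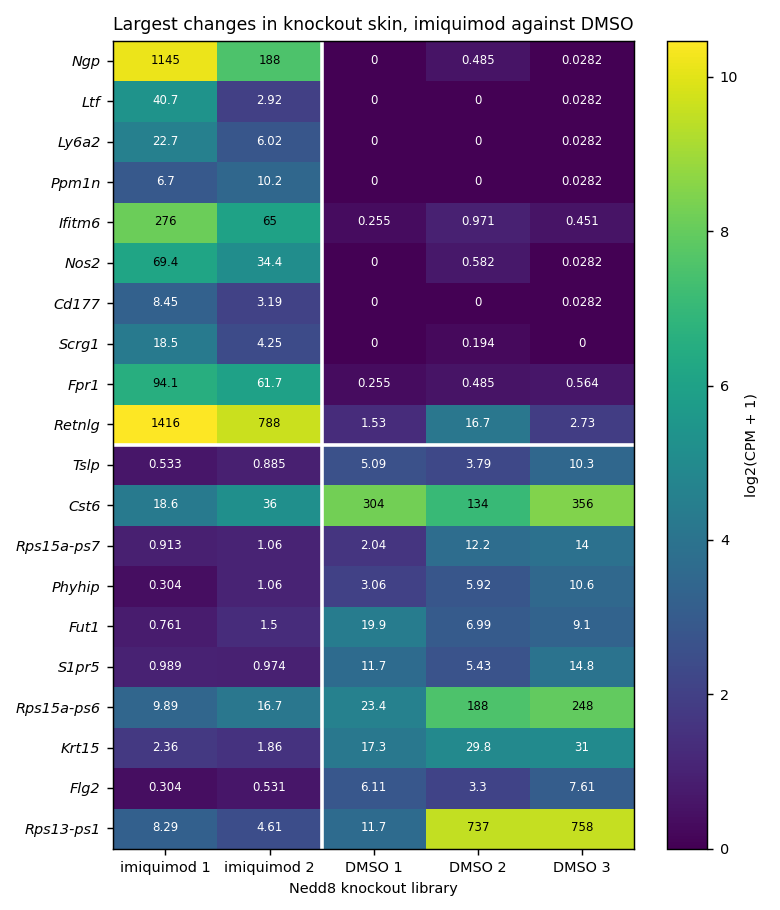
CPM of the 10 highest and 10 lowest fold changes that met the naming rule, in the 2 imiquimod and 3 DMSO libraries of knockout skin, coloured by log2(CPM + 1) with the CPM written in each cell. Ngp is high in both imiquimod libraries (1145 and 188 CPM), and the 3 ribosomal pseudogenes are high in DMSO libraries 2 and 3 and not in DMSO library 1.

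Promoter sequence was read for genes that rose together, because NF-kB and C/EBP proteins are known regulators of chemokine and neutrophil granule genes. The 250 bases before the start sites below are from RefSeq on GRCm38.p6, in gene orientation, and capitals mark matches on either strand: an NF-kB motif (GGG, any 2 bases, TTTCC) in the first 3, and a C/EBP motif (TTGC, any 2 bases, AA) in the other 2. Cxcl2 lies at chr5:90903649-90903898 (+), Cxcl1 at chr5:90890995-90891244 (+), Nfkbia at chr12:55492648-55492897 (-), Ngp at chr9:110419558-110419807 (+) and Ltf at chr9:111019042-111019291 (+).
Cxcl2: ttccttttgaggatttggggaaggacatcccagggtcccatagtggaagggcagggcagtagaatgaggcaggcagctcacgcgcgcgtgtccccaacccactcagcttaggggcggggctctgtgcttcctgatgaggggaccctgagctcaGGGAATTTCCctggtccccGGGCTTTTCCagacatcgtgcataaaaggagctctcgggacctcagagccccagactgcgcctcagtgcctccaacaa
Cxcl1: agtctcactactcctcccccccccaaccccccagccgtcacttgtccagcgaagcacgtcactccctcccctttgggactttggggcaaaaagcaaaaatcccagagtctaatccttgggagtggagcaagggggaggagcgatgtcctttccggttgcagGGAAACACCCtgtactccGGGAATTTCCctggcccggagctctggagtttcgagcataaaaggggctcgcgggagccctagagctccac
Nfkbia: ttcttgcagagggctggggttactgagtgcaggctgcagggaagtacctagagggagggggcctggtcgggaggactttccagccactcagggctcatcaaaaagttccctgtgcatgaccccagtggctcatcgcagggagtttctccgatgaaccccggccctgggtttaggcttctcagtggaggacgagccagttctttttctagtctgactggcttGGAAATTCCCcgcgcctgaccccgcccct
Ngp: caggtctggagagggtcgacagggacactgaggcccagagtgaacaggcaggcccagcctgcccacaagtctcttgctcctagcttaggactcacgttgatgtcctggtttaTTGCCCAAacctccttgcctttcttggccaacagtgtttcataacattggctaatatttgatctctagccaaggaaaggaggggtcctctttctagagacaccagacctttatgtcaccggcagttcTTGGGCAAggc
Ltf: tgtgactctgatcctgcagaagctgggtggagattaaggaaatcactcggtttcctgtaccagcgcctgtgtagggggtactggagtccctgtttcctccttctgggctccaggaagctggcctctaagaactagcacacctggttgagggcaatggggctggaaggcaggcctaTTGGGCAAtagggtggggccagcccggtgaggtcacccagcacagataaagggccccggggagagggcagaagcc
Cxcl2 and Cxcl1 each hold 2 matches to the NF-kB letters, starting 97 and 78 bases before the Cxcl2 start and 89 and 71 bases before the Cxcl1 start. Nfkbia holds 1, at 29 bases. Ngp holds 2 C/EBP matches, at 138 and 11 bases, and Ltf holds 1, at 75 bases. The NF-kB letters stood in 1.41% of all 32851 promoters in the table and in 1.55% of those of genes tested, against 3.74% of the 1231 promoters of genes that rose and 1.72% of the 349 of genes that fell. They stood in 4 of 8 promoters of the neutrophil chemokine list and in 5 of 23 of the NF-kB list. The C/EBP letters stood in 8 of 19 promoters of neutrophil markers, against 9.56% of all promoters and 8.19% of those of genes tested. They stood in 10.6% of those of genes that rose and in 11.5% of those of genes that fell. The last motif was GAAA, any 2 bases, GAAA, the core of the interferon response element. It stood in 10 of 22 promoters of the type I interferon list, against 2.98% of all promoters and 2.64% of those of genes tested. Genes that rose had it in 4.96% of their promoters and genes that fell in 1.72%. Promoters of 8 other named genes were read and are not printed: those of Camp, Il1b, Tnf and Traf1 held none of the 3 motifs, 1 of the 2 of Tnfaip3 held the NF-kB letters, those of Clec4e and Retnlg the C/EBP letters, and that of Saa3 the C/EBP and interferon letters. None of the 3 motifs overlapped another in the 5 promoters printed, and a match describes letters, not binding.

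Genes of imiquimod sensing rose in part in knockout skin. The list, called TLR7 signalling here, also holds Tlr2, a receptor for other ligands. Of 19 tested genes of TLR7 signalling, 8 rose and 0 fell (median 1.73, against -0.04 over all genes); 4 rose without the first imiquimod library, 5 without the third DMSO library and 4 with sex in the model. Tlr7, the receptor itself, had 6.92 and 4.25 CPM with imiquimod, against 0.764, 0.679 and 0.507 CPM with DMSO (3.18 ± 0.51, adjusted p = 0.00142). Cd14, a co-receptor for TLR ligands on monocytes, had 713 and 489 CPM with imiquimod, against 8.15, 19.3 and 19.9 CPM with DMSO (5.22 ± 0.47, adjusted p = 5.81e-05). Tlr2, the receptor for bacterial lipoproteins, had 199 and 67.8 CPM with imiquimod, against 8.91, 5.73 and 2.9 CPM with DMSO (4.58 ± 0.56, adjusted p = 2.66e-04). In each the lower imiquimod library stood clear of the highest DMSO library. Irak3, a brake on TLR signalling, rose by 3.20 ± 0.52, adjusted p = 0.00169. Cd14, Tlr2 and Irak3 kept their calls with sex in the model and Tlr7, an X-linked gene, did not. Markers of myeloid cells rose alongside, as given below; in whole skin, more cells of a type and more RNA per cell cannot be told apart.

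Of 15 tested genes of the IL-23 and IL-17 axis 2 rose, near the 8.56% of all genes, and 0 fell (median 1.04), with 1 rise without the first imiquimod library and 4 without the second. Il17a, the cytokine of gamma delta and Th17 cells, had 0 and 0 CPM with imiquimod and 0, 0 and 0.0282 CPM with DMSO, and Il17f 0 and 0.0886 and 0, 0 and 0 CPM, so both groups were at or under the 3-count floor and no fold is given. Il23a, the IL-23 subunit made by dendritic cells, had 2.97 and 8.41 CPM with imiquimod and 2.55, 2.23 and 1.47 CPM with DMSO (1.50 ± 0.49, adjusted p = 0.0647), which did not pass, though it did with DESeq2. The 2 that rose were Nfkbiz, a target and mediator of IL-17 signalling, with 314 and 192 CPM against 14.3, 45.7 and 12.8 CPM (3.38 ± 0.57, adjusted p = 0.00216), and Il1r1, the IL-1 receptor (2.03 ± 0.40, adjusted p = 0.00558). The call of Il1r1 ended without the first imiquimod library (1.31), and neither gene kept it with sex in the model.

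Within the IL-1 family, Il1b and several receptors rose, and the keratinocyte cytokines of the IL-36 branch did not pass. Of 17 genes tested 8 rose and 1, the alarmin Il33, fell (median -0.02); without the first imiquimod library 4 rose and 0 fell, and without the second DMSO library 8 rose and 3 fell. Il1b, the inflammasome-processed cytokine of myeloid cells (chr2:129206490-129213059), had 2729 and 2225 CPM with imiquimod, against 68.8, 29 and 103 CPM with DMSO (5.20 ± 0.51, adjusted p = 8.75e-05). Il1r2, a decoy receptor that neutrophils carry, had 894 and 378 CPM with imiquimod and 34.4, 22.8 and 11.9 CPM with DMSO (4.81 ± 0.54, adjusted p = 1.70e-04). Nlrp3, the inflammasome sensor, had 28.7 and 43.6 CPM with imiquimod and 0.509, 0.679 and 0.789 CPM with DMSO (5.67 ± 0.76, adjusted p = 4.51e-04). These 3, and Il1rl1, the IL-33 receptor (4.98 ± 0.59, adjusted p = 2.13e-04), kept their calls with sex in the model. Il36a had 13.6 and 49.1 CPM with imiquimod and 231, 79.2 and 64.8 CPM with DMSO (-1.99 ± 0.73, adjusted p = 0.097), and Il36g 63.2 and 66.9 and 250.1, 87.5 and 113 CPM (-1.20 ± 0.43, adjusted p = 0.0891). Neither passed. Il36a did with DESeq2, Il36g did without the second DMSO library (-1.48), and both did with no filter on low counts.

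Of 14 genes of the IL-20 and IL-6 families, 5 rose and 1 fell (median 1.35), and 2 rose without the first imiquimod or the third DMSO library. Osm, oncostatin M of neutrophils and macrophages, had 60.3 and 63.9 CPM with imiquimod and 2.04, 0.388 and 3.66 CPM with DMSO (4.84 ± 0.74, adjusted p = 0.00107). Il6 had 5.55 and 16.9 CPM with imiquimod and 0.255, 2.43 and 1.07 CPM with DMSO (3.05 ± 0.64, adjusted p = 0.0107), a call that ended without the second imiquimod library (2.05) or the third DMSO library (2.86). Il20rb, the receptor subunit by which keratinocytes answer IL-19, IL-20 and IL-24, fell by 1.40 ± 0.30 (adjusted p = 0.00937), and by 1.32 without the first imiquimod library, when it did not pass. With sex in the model 0 of the 14 passed.

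Chemoattractants and growth factors of neutrophils rose. Of 10 genes tested 7 rose and 0 fell (median 3.01); 3 rose without the first imiquimod library, 4 without the second, 4 without the third DMSO library and 1 with sex in the model. Cxcl2, a ligand of the neutrophil receptor CXCR2 (chr5:91051730-91053797), had 1152 and 1204 CPM with imiquimod, against 28.5, 21.6 and 38.3 CPM with DMSO (5.32 ± 0.56, adjusted p = 1.20e-04), and was the one that kept its call with sex in the model. Both imiquimod libraries were alike and every DMSO library was far below them. Csf3, the granulocyte growth factor G-CSF, had 153 and 57 CPM with imiquimod and 4.33, 5.82 and 1.35 CPM with DMSO (4.84 ± 0.59, adjusted p = 2.59e-04), and its receptor Csf3r had 32.3 and 65.5 and 5.35, 7.18 and 3.92 CPM (3.17 ± 0.49, adjusted p = 0.00124). Cxcl1 had 47.5 and 98.1 CPM with imiquimod and 1.53, 23.5 and 4.54 CPM with DMSO (2.86 ± 0.81, adjusted p = 0.0367). Its call ended without the first (3.28) or second (2.26) imiquimod library and without the first (2.45) or the third (2.49) DMSO library. Cxcl5, another CXCR2 ligand, had 184 and 114 CPM with imiquimod and 10.2, 81.7 and 14.4 CPM with DMSO (2.07 ± 0.77, adjusted p = 0.105). It did not pass, but did without the second DMSO library, its highest (3.58), and with no filter on low counts.

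Chemokines for monocytes, T cells and other leukocytes gave 11 rises and 0 falls among 22 genes (median 1.98), with 4 rises without the first imiquimod library and 3 with sex in the model. Ccl4, a chemokine of activated macrophages, had 936 and 562 CPM with imiquimod, against 17.8, 6.99 and 22.4 CPM with DMSO (5.57 ± 0.74, adjusted p = 4.17e-04), and the related Ccl3 203 and 90.9 and 11.7, 2.23 and 5.95 CPM (4.54 ± 0.60, adjusted p = 4.18e-04). Cxcl9, an interferon gamma-induced ligand of CXCR3, had 4.72 and 2.48 CPM with imiquimod and 0, 0.194 and 0.254 CPM with DMSO (4.09 ± 0.72, adjusted p = 0.00266). Ccl4 and Cxcl9 kept their calls with sex in the model. Ccl20, which draws IL-17-producing cells to the epidermis, had 0 and 0.443 CPM with imiquimod and 0, 1.36 and 2.45 CPM with DMSO, with no call (adjusted p = 0.308) except, as a fall, with no filter on low counts.

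NF-kB genes rose widely. Of 20 subunits and feedback genes 15 rose and 0 fell (median 1.81), with 12 without the third DMSO library, 6 without the first imiquimod library and 4 with sex in the model. Tnf, the cytokine that starts the pathway and is itself a target, had 32.6 and 23.7 CPM with imiquimod, against 0.764, 0.776 and 0.62 CPM with DMSO (5.32 ± 0.54, adjusted p = 1.01e-04). Nfkbia, the inhibitor IkB-alpha, which is both a target of NF-kB and a substrate of a cullin-RING ligase, had 5535 and 3516 CPM with imiquimod, against 679, 1204 and 749 CPM with DMSO (2.37 ± 0.36, adjusted p = 0.00112). Tnfaip3, the feedback enzyme A20, had 17.1 and 13.3 CPM with imiquimod and 0.764, 2.23 and 1.01 CPM with DMSO (3.46 ± 0.52, adjusted p = 9.91e-04). Traf1, an adaptor of TNF receptors, rose by 5.40 ± 0.71, adjusted p = 4.17e-04. Tnf, Tnfaip3 and Traf1 kept their calls with sex in the model.

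Interferon genes rose in part. Of 31 genes of the type I interferon response 7 rose and 0 fell (median 1.08), with 2 without the first imiquimod library or the third DMSO library and 0 with sex in the model. Ifi204, a DNA sensor, had 58.4 and 37.5 CPM with imiquimod and 11.7, 11.4 and 13.4 CPM with DMSO (1.97 ± 0.30, adjusted p = 0.00107), and Oas2, which makes the activator of RNase L, 5.17 and 2.83 and 0.255, 0.194 and 0.338 CPM (3.79 ± 0.60, adjusted p = 0.00133). Isg15 had 42.9 and 32.3 CPM with imiquimod and 25, 7.08 and 15 CPM with DMSO (1.28 ± 0.53, adjusted p = 0.138), and Ifit1 0.913 and 1.77 and 1.02, 0.388 and 1.38 CPM (0.46 ± 0.78, adjusted p = 0.752); neither passed, though Isg15 did with voom and with no filter on low counts. Irf7, the master regulator of type I interferons, rose by 2.46 ± 0.56, adjusted p = 0.0127, a call lost without the first imiquimod library (1.97) or the third DMSO library (2.28). Of 22 genes of the interferon gamma response and antigen processing 7 rose and 0 fell (median 1.10), with 1 without the first imiquimod library, 2 without the third DMSO library and 4 without the second. Cd274, the T cell inhibitory ligand PD-L1, kept its call with sex in the model and had 40.2 and 38 CPM with imiquimod, against 2.55, 4.85 and 4.03 CPM with DMSO (3.32 ± 0.40, adjusted p = 2.30e-04).

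Some alarmins and antimicrobial proteins rose. Of 24 genes tested 10 rose and 1 fell (median 1.34), with 7 rises without the first imiquimod library and 3 with sex in the model. Saa3, an acute-phase serum amyloid, had 6849 and 1775 CPM with imiquimod, against 145, 174 and 62.9 CPM with DMSO (5.08 ± 0.71, adjusted p = 5.73e-04). Wfdc21, a whey acidic protein of inflamed epithelium and myeloid cells, had 1672 and 762 and 54.8, 38.6 and 21.7 CPM (5.00 ± 0.58, adjusted p = 1.94e-04), and kept its call with sex in the model. Camp, the cathelicidin of neutrophil granules, had 17.7 and 8.59 and 0, 0.291 and 0.113 CPM (6.40 ± 0.87, adjusted p = 6.40e-04). S100a8 and S100a9, which form calprotectin in neutrophils and stressed keratinocytes, did not pass. S100a8 had 81710 and 34410 CPM with imiquimod and 49790, 12880 and 11010 CPM with DMSO (1.24 ± 0.97, adjusted p = 0.447), and S100a9 27810 and 17470 and 13400, 5615 and 6002 CPM (1.44 ± 0.86, adjusted p = 0.307). S100a9, but not S100a8, passed as a rise with sex in the model (4.53) and with no filter on low counts. In both the first DMSO library was the highest of the 3, and for S100a8 it lay between the imiquimod libraries.

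Markers of neutrophils rose almost without exception. Of 20 tested, 17 rose and 0 fell (median 5.34), 16 without the first imiquimod library, 17 without any 1 of the other knockout libraries and 6 with sex in the model. Clec4e, the fungal and mycobacterial lipid receptor Mincle, had 144 and 87.9 CPM with imiquimod, against 1.27, 1.26 and 1.04 CPM with DMSO (6.63 ± 0.45, adjusted p = 2.64e-05). Hdc, which makes histamine, had 1450 and 622 and 38.5, 36.4 and 32.8 CPM (4.85 ± 0.39, adjusted p = 2.78e-05), and Trem1, an amplifier of myeloid activation, 265 and 205 and 6.88, 2.81 and 4.37 CPM (5.70 ± 0.54, adjusted p = 7.17e-05), and Hdc and Trem1 kept their calls with sex in the model. The summed level of the list, most of it S100a8 and S100a9, was 119000 and 55700 CPM with imiquimod, against 63500, 18700 and 17300 CPM with DMSO, so the sums overlapped. The 3 tested markers that did not pass were S100a8, S100a9 and Mmp9. Of the granule enzymes of immature neutrophils, Elane was at 0 in all 5 libraries, and Mpo was at 0 in the DMSO libraries and at most 0.177 CPM in the imiquimod ones.

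Of 22 markers of monocytes and macrophages 15 rose and 0 fell (median 2.32), with 5 without the first imiquimod library and 7 with sex in the model. Ly6c2, of inflammatory monocytes, had 70.6 and 25.4 CPM with imiquimod, against 1.02, 0.971 and 0.789 CPM with DMSO (5.74 ± 0.66, adjusted p = 1.71e-04). Fcgr4, an activating IgG receptor, had 74.6 and 21 and 1.53, 0.485 and 0.987 CPM (5.68 ± 0.75, adjusted p = 4.17e-04). The first imiquimod library was the higher in both, and the summed level was 4920 and 2530 CPM with imiquimod and 2270, 915 and 833 CPM with DMSO. Both genes kept their calls with sex in the model. Of 16 T and NK cell markers 3 rose and 1 fell (median 0.96), against 8.56% and 2.52% of all genes, where Gzma, a granzyme, had 16.5 and 9.83 and 0.255, 0.097 and 0.197 CPM (6.16 ± 0.75, adjusted p = 2.59e-04) and Prf1, perforin, 2.36 and 0.974 and 0, 0 and 0.113 CPM (4.37 ± 0.70, adjusted p = 0.00145), calls that both kept with sex in the model. Trbc2, a T cell receptor constant chain, fell by 1.44 ± 0.37 (adjusted p = 0.0228), a call lost without the first imiquimod (-1.04) or the third DMSO library (-1.20). Dendritic and Langerhans cell markers gave 3 rises among 18 and none without the first imiquimod library, mast cell markers 1 of 7 and also none without it, and B and plasma cell markers 0 of 4.

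Proteases that open matrix for migrating cells rose. Of 18 tested 9 rose and 0 fell (median 1.77), with 5 without the first imiquimod library and 3 with sex in the model. Mmp8, the collagenase of neutrophils, had 2208 and 698 CPM with imiquimod, against 6.88, 23.9 and 3.89 CPM with DMSO (6.97 ± 0.79, adjusted p = 1.71e-04). Mmp13, a collagenase of fibroblasts and wound keratinocytes, had 450.5 and 154 and 18.3, 17.1 and 23.6 CPM (3.94 ± 0.55, adjusted p = 5.75e-04), Mmp10, a stromelysin of migrating keratinocytes, 90.3 and 29.9 and 1.27, 3.79 and 1.32 CPM (4.80 ± 0.62, adjusted p = 3.71e-04), and Plaur, the urokinase receptor, 151 and 195 and 2.8, 17.2 and 8.79 CPM (4.13 ± 0.56, adjusted p = 5.11e-04). Mmp13 and Plaur kept their calls with sex in the model. Mmp9, the gelatinase of neutrophil granules, had 452 and 242 CPM with imiquimod and 194, 66.8 and 152 CPM with DMSO and did not pass (1.34 ± 0.52, adjusted p = 0.115), except with no filter on low counts.

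**Figure D3:**
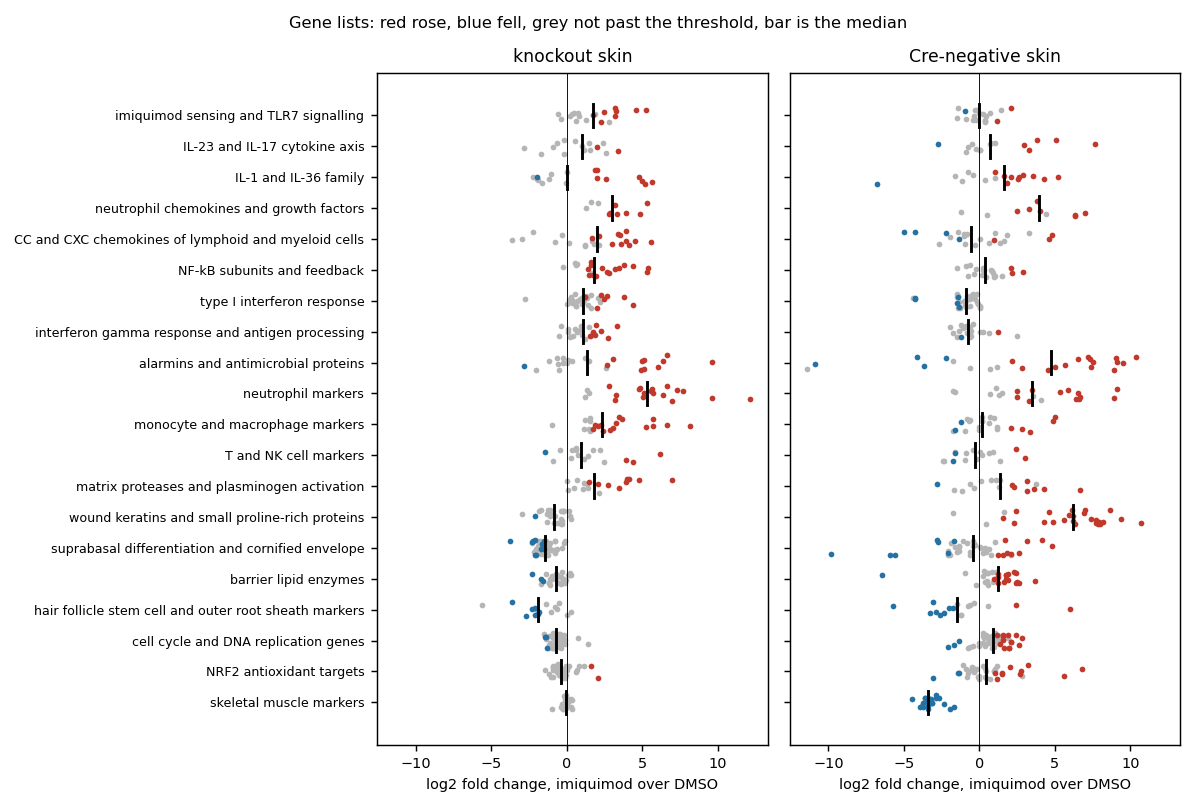
Log2 fold changes (imiquimod over DMSO) of the tested members of 20 gene lists in knockout skin (left) and Cre-negative skin (right); each point is a gene, red where it rose, blue where it fell and grey where it did not pass, and the bar is the median. In knockout skin 17 of 20 neutrophil markers rose and 0 of 27 wound genes did, against 12 and 24 in Cre-negative skin.

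The wound programme of the epidermis did not rise with imiquimod in knockout skin. Of 27 wound genes, keratins and SPRR proteins, 0 rose and 1 fell (median -0.84). Krt6a, the keratin of hyperproliferative epidermis, had 5298 and 9216 CPM with imiquimod, against 17110, 14510 and 19510 CPM with DMSO (-1.23 ± 0.40, adjusted p = 0.064), and its partner Krt16 1572 and 2049 and 7040, 2366 and 3198 CPM (-1.21 ± 0.54, adjusted p = 0.171). Neither passed, though Krt6a did as a fall with DESeq2 and voom. For comparison of levels, Krt6a stood at 12040 and 9671 CPM in Cre-negative imiquimod skin and 127, 159.7 and 180 CPM in Cre-negative DMSO skin, so it was already high in knockout skin with DMSO. Krt17 was the 1 that fell, with 285 and 451 CPM with imiquimod and 1923, 1065 and 1738 CPM with DMSO (-2.10 ± 0.38, adjusted p = 0.00323), and its change of -1.80 did not pass without the first imiquimod library.

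Genes of epidermal differentiation and lipid synthesis fell where they moved. Of 46 suprabasal and cornified envelope genes 0 rose and 10 fell (median -1.41); without the first imiquimod library 0 fell, without the second 15, without the first, second or the third DMSO library 7, 16 or 6, and with sex in the model 0. Klk5, a kallikrein of desquamation, had 6.77 and 7.17 CPM with imiquimod and 19.4, 19.8 and 20.7 CPM with DMSO (-1.52 ± 0.31, adjusted p = 0.00695). Tgm5, a transglutaminase that cross-links the envelope, had 1.52 and 3.9 and 17.8, 10 and 13 CPM (-2.32 ± 0.45, adjusted p = 0.00514), and Casp14, which processes filaggrin, 5.4 and 6.38 and 30.3, 13.7 and 29.4 CPM (-2.05 ± 0.44, adjusted p = 0.00836). Without the first imiquimod library none of these passed, at -1.48, -1.78 and -1.93. Krt10, the suprabasal keratin, had 15.4 and 20.4 CPM with imiquimod and 49.2, 21.4 and 22 CPM with DMSO, where Cre-negative skin had 2235 and 491 and 1863, 6529 and 8589 CPM; in knockout skin the change did not pass (-0.77 ± 0.80, adjusted p = 0.583). Of 30 barrier lipid enzymes 0 rose and 3 fell, and 0 passed without the first imiquimod, first DMSO or the third DMSO library. Of 20 basal keratinocyte and hemidesmosome genes 1 rose and 1, Krt15, fell. Krt14, the promoter donor of the recombinase, had 4655 and 7710 CPM with imiquimod and 17630, 12200 and 16800 CPM with DMSO (-1.33 ± 0.41, adjusted p = 0.0515); it passed with DESeq2, with voom, with the 18S gene left out and without the second DMSO library (-1.48). Among 11 ligands of the EGF receptor family 1 rose and 1 fell, and neither call held without the first imiquimod library.

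Both imiquimod libraries lay below every DMSO library in 18.9% of all genes. Keratinocyte markers did so as a sum, in which Krt14 alone weighed heavily, and so took a smaller share of the reads. Their summed level was 11100 and 17900 CPM with imiquimod, against 45000, 28000 and 41100 CPM with DMSO, without overlap, and 1 of 13 fell while 0 rose, with 0 to 3 falls when 1 library was left out; the part of this in the falls above was not tested. Follicle genes fell too: of 17 markers of follicle stem cells and outer root sheath 0 rose and 7 fell (median -1.88), with 2 without the first imiquimod library, 4 without the second and 1 with sex in the model. Among the 7 were Krt15 and Krt17, already counted above in other lists. Krt79, of the infundibulum and sebaceous duct, had 13.1 and 4.69 CPM with imiquimod and 47.4, 28.8 and 55.7 CPM with DMSO (-2.30 ± 0.49, adjusted p = 0.00806), a call lost without the second imiquimod library (-1.76). Sox9, a factor of follicle stem cells, had 59.8 and 96.6 and 192, 292 and 377 CPM (-1.88 ± 0.41, adjusted p = 0.0103), a call lost without the first (-1.57). Of 22 hair shaft and inner root sheath markers 0 passed, of 18 sebocyte markers 1 rose and 2 fell, of 15 adipocyte markers 0 rose and 4 fell, and of 9 melanocyte markers 2 rose. Without the first imiquimod library 1 sebocyte marker fell and 0 adipocyte or melanocyte markers passed.

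Of 37 NRF2 targets 2 rose, Fth1 and Hmox1, which store and release iron, and 0 fell (median -0.37); 0 rose and 0 fell without the first imiquimod library, and 2 rose and 4 fell without the second. Nqo1, a quinone reductase used as a reporter of NRF2, had 36.7 and 105 CPM with imiquimod and 84.6, 121 and 99.1 CPM with DMSO (-0.52 ± 0.47, adjusted p = 0.523), and Gpx2 354 and 564 and 882, 534 and 369.7 CPM (-0.37 ± 0.46, adjusted p = 0.652). Both lay well above the 4.3, 3.17 and 3.57 CPM and 1.79, 1.09 and 1.75 CPM of Cre-negative DMSO skin in every knockout library. Of 26 NEDD8 pathway and cullin genes 0 passed (median -0.23). Of 28 unfolded protein and integrated stress genes 1 rose and 1 fell; Ppp1r15a, the phosphatase subunit GADD34, had 82.1 and 89.8 CPM with imiquimod, against 15.3, 21.8 and 22.2 CPM with DMSO (2.11 ± 0.26, adjusted p = 2.66e-04). Of 14 heat shock genes 0 rose and 3 fell, and 0 passed without the first imiquimod or the third DMSO library.

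Some genes of cell death and growth arrest rose. Of 24 death genes 5 rose and 2 fell (median 0.26), with 3 rises and 0 falls without the first imiquimod library, 3 and 0 without the third DMSO library and 3 and 0 with sex in the model. Bcl2l11, the apoptosis inducer BIM, had 63.8 and 41.4 CPM with imiquimod, against 7.39, 7.08 and 7.78 CPM with DMSO (2.82 ± 0.29, adjusted p = 1.11e-04). Casp4, the caspase that answers cytosolic lipopolysaccharide, had 41.5 and 20.8 and 2.04, 2.62 and 1.21 CPM (4.04 ± 0.45, adjusted p = 1.57e-04), and Fas, a death receptor, 18.3 and 13.6 and 1.27, 1.46 and 1.95 CPM (3.29 ± 0.48, adjusted p = 7.88e-04). These 3 kept their calls with sex in the model. Of 28 p53 targets 6 rose and 1 fell (median 0.17), with 2 rises without the first imiquimod or the third DMSO library; Btg2, an antiproliferative gene, had 221 and 184 CPM with imiquimod and 31.3, 45.6 and 30.2 CPM with DMSO (2.50 ± 0.28, adjusted p = 1.45e-04) and kept its call in all of these settings. Of 50 cell cycle and replication genes 0 rose and 3 fell (median -0.74), with 0 without the first imiquimod library and 1 without the third DMSO library. Mki67, a marker of cycling cells, had 20.9 and 31.9 CPM with imiquimod and 19.6, 42.4 and 82.9 CPM with DMSO, which overlapped (-0.88 ± 0.49, adjusted p = 0.275). Of 25 hypoxia and glycolysis genes 3 rose, 1 without the first imiquimod library, among them Pfkfb3, an activator of glycolysis, with 170.2 and 61.5 CPM against 8.41, 9.22 and 7.75 CPM (3.78 ± 0.42, adjusted p = 1.62e-04), a call also kept with sex in the model. Of 31 respiratory chain subunits 0 rose and 3 fell, and 0 without the first imiquimod, first DMSO or the third DMSO library.

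Of 25 dermal matrix genes 6 rose and 1 fell, beside 11.1% of all genes called, with 0 without the first imiquimod library and 1 without the third DMSO library, and of 14 fibroblast markers 4 rose, with 0 and 1 under those settings. Thbs1, a matricellular protein of wounds, had 523 and 146 CPM with imiquimod and 60.4, 24.2 and 12.1 CPM with DMSO (3.40 ± 0.72, adjusted p = 0.00807), and 2.21 without the first imiquimod library, when it did not pass. Vim, the mesenchymal filament vimentin, had 387 and 169 and 43, 62.1 and 37.4 CPM (2.55 ± 0.42, adjusted p = 0.00178), a call lost without the first imiquimod library (1.83) and kept with sex in the model. Of 16 endothelial markers 2 rose, 6 without the second DMSO library, 4 without the second imiquimod library and 0 without the first, with sums of 510 and 274 CPM with imiquimod and 119, 237 and 115 CPM with DMSO. Of 10 pericyte, 7 Schwann cell and 10 erythroid and platelet markers 1 each rose, and none of these held without the first imiquimod library. The rises among endothelial, pericyte, Schwann cell, erythroid and platelet markers stand near the 8.56% of all genes that rose. Of 22 skeletal muscle markers 0 passed, with sums of 6550 and 2300 CPM with imiquimod and 4520, 5060 and 3060 CPM with DMSO. Of 24 HOX genes of trunk position, which mark the skin of the trunk as against that of the head, 1 rose and 0 fell, with sums of 149 and 131 CPM with imiquimod and 161, 150 and 134 CPM with DMSO.

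The response of knockout skin was then set against that of Cre-negative skin, which asks what the recombinase genotype changed in the reaction to imiquimod. In Cre-negative skin 1307 genes rose (8.15%) and 1614 fell (10.1%). Of the genes that rose, 131 were shared, which is 9.55% of the knockout list and 10% of the Cre-negative list. Another 140 that rose in knockout skin (10.2%) fell in Cre-negative skin. Both shares of the knockout list lie near the 8.15% and 10.1% of all genes. Of those that fell, 43 were shared, 10.6% of the knockout list and 2.66% of the Cre-negative list, again near the 10.1% of all genes. Another 90 that fell in knockout skin (22.3%) rose in Cre-negative skin, beside 8.15% of all genes. The difference between the responses passed for 3785 genes (23.6%), 2242 of them higher in the knockout response (14%) and 1543 lower (9.63%). Scaled by library size alone these were 3650 and 511, without the first knockout imiquimod library 727 and 447, and with sex in the model 982 and 487. The same test against wild-type skin, where imiquimod raised 1537 genes (9.59%) and lowered 1896 (11.8%), passed for 2414 genes higher (15.1%) and 1935 lower (12.1%), and for 3974 and 607 with library size alone. The sexes of the libraries differed between genotypes as well: both Cre-negative imiquimod libraries and 2 of 3 Cre-negative DMSO libraries were male, and all 4 wild-type libraries female.

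Genes of the wound programme rose in Cre-negative skin and not in knockout skin, and the difference passed the test. Of the 27 wound genes 23 were lower in the knockout response and 0 higher (median difference -6.82), 22 to 25 when any 1 of the 10 libraries was left out and 21 with sex in the model; 24 rose in Cre-negative skin, 26 in wild-type skin and 0 in knockout skin. Krt6a changed by -1.23 in knockout skin and by 6.12 ± 0.44, adjusted p = 9.76e-06 in Cre-negative skin, a difference of -7.36 ± 0.61, adjusted p = 6.90e-05. Sprr2b, a cornified envelope precursor, had 1.14 and 19.8 CPM in knockout imiquimod skin, against 32.6, 29.2 and 40.5 CPM in knockout DMSO skin, and 309 and 268 CPM in Cre-negative imiquimod skin, against 0.112, 0.109 and 0.291 CPM in Cre-negative DMSO skin, a difference of -12.44 ± 1.43, adjusted p = 2.33e-04. Defb3, an antimicrobial defensin, had 2.59 and 9.65 and 5.86, 15.8 and 4.68 CPM in knockout skin and 148 and 253 and 0, 0 and 0.51 CPM in Cre-negative skin, imiquimod first (-10.88 ± 1.44, adjusted p = 5.22e-04). In all 3 genes the knockout DMSO libraries held levels above every Cre-negative DMSO library. The other named genes that were lower, Fam3d, Gml and Spink12, had 0 counts in all 3 Cre-negative DMSO libraries, and the size of their fitted difference, and in part that of Sprr2b and Defb3, depends on the small count that edgeR adds.

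The S100a8 and S100a9 responses were lower in knockout skin as well, with differences of -7.65 ± 1.59, adjusted p = 0.00566, and -7.66 ± 1.40, adjusted p = 0.00309, beside Cre-negative levels of 54080 and 121400 CPM with imiquimod and 37.1, 65 and 452 CPM with DMSO for S100a8. The S100a8 difference did not pass with DESeq2. Il36a differed by -5.54 ± 1.02, adjusted p = 0.00321, Arg1, the arginase of myeloid cells and keratinocytes, by -4.31 ± 0.98, adjusted p = 0.00847, and Tslp by -5.89 ± 0.85, adjusted p = 0.00101. The Arg1 difference ended without the first knockout imiquimod library (-4.20). Il17a had 1.44 and 1.82 CPM in Cre-negative imiquimod skin and 0, 0 and 0 CPM in Cre-negative DMSO skin, where it rose (adjusted p = 0.00143). Barrier lipid enzymes were lower for 15 of 30 genes and higher for 0, with 8 lower without the first knockout imiquimod library and 7 with library size alone. Cell cycle genes were lower for 23 of 50 and higher for 3, with 5 lower without that library, with sex in the model or with library size alone, and 13 without the third knockout DMSO or the first or second Cre-negative DMSO library.

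Immune genes of several kinds were higher in the knockout response. Of the NF-kB list 10 of 20 were higher and 0 lower, of the type I interferon list 12 of 31 and 0, of the interferon gamma list 11 of 22 and 0, and of monocyte and macrophage markers 10 of 22 and 1. Without the first knockout imiquimod library the 4 lists had 3, 5, 2 and 1 genes higher, with sex in the model 7, 4, 7 and 6, and with library size alone 15, 21, 14 and 17. Without the first Cre-negative imiquimod library 5 genes of the interferon gamma list and 4 of the monocyte and macrophage list were higher, and without the third knockout DMSO library 6 of each. In Cre-negative skin 0 genes of the type I interferon list rose and 5 fell. A higher response is not a higher level. The interferon gamma list summed to 2210 and 1370 CPM with imiquimod and 711, 1220 and 1060 CPM with DMSO in knockout skin. In Cre-negative skin it summed to 2070 and 2240 CPM with imiquimod and 2560, 2770 and 3150 CPM with DMSO. For each of the other lists both knockout imiquimod sums lay above both Cre-negative imiquimod sums. Tnf changed by 5.32 in knockout skin and had 0.861 and 2.69 CPM with imiquimod and 0.783, 0.492 and 0.729 CPM with DMSO in Cre-negative skin, a difference of 3.84 ± 0.76, adjusted p = 0.00455. Il1r2 differed by 6.41 ± 0.78, adjusted p = 3.19e-04, Wfdc21 by 8.68 ± 0.89, adjusted p = 1.42e-04, and Tlr7 by 3.37 ± 0.70, adjusted p = 0.00566. These 4 differences held without any 1 of the 10 libraries and with sex in the model. Ngp had 0.861 and 0.0673 CPM in Cre-negative imiquimod skin and 0.0559, 0.109 and 0.219 CPM in Cre-negative DMSO skin, and differed by 10.62 ± 2.44, adjusted p = 0.00892, a call lost with sex in the model; with so few Cre-negative counts its size depends in part on the small count that edgeR adds. Fam169b and Scrg1, also higher, had 0 counts in both Cre-negative imiquimod libraries. So did Pyy and Dab1, which had at most 0.177 CPM in any knockout library; both calls ended without the second knockout imiquimod library (9.71 and 8.02).

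Several inflammatory genes did not differ between the responses by this test. Il1b rose by 5.20 in knockout skin and by 5.19 ± 0.52, adjusted p = 4.09e-05 in Cre-negative skin, with a difference of 0.01 ± 0.95, adjusted p = 1, although its levels were 88.2 and 103 CPM in Cre-negative imiquimod skin and 1.9, 1.86 and 4.15 CPM in Cre-negative DMSO skin, below those of knockout skin in each treatment. Cxcl2 rose by 5.32 in knockout skin and by 6.32 ± 0.63, adjusted p = 4.09e-05 in Cre-negative skin, and the difference had an adjusted p of 0.359. Among neutrophil markers 6 of 20 were higher and 2 lower, with 2 and 2 without the first knockout imiquimod library. A test that misses the threshold does not show that the responses were alike, and these standard errors allow differences of several fold.

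**Figure D4:**
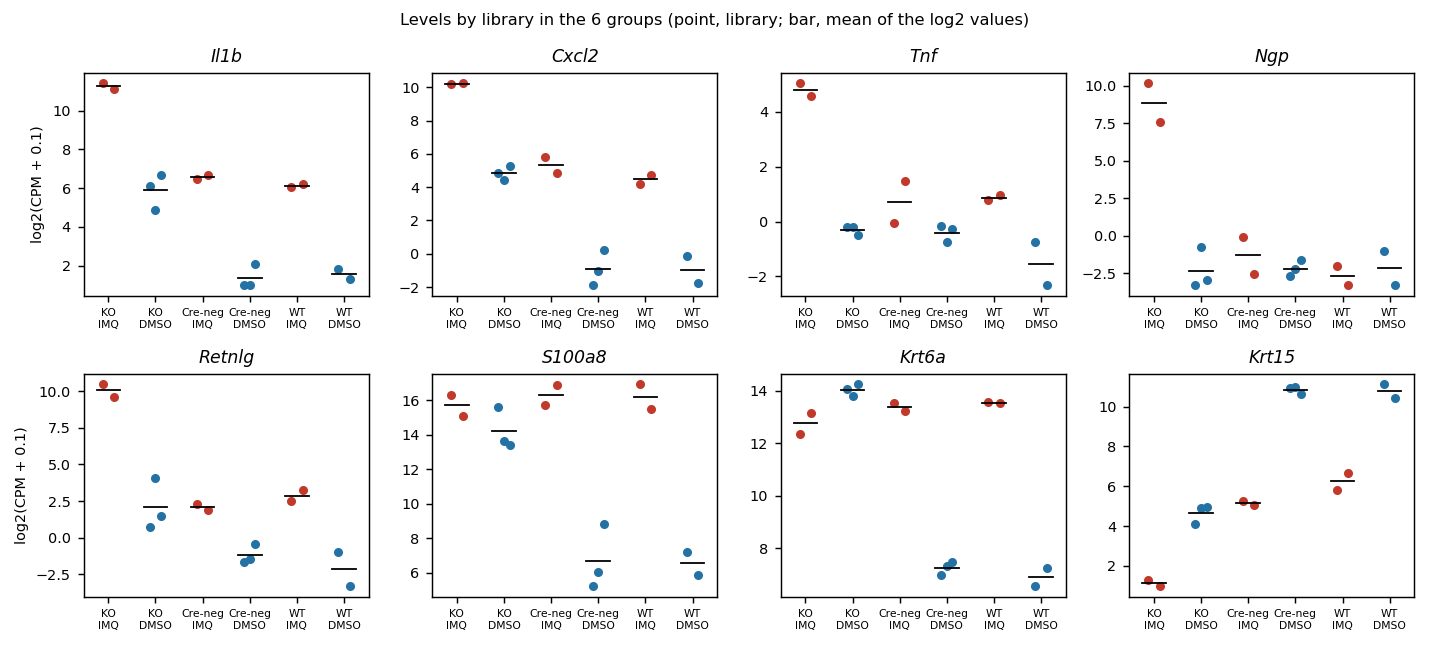
Level by library of 8 genes in the 6 groups, as log2(CPM + 0.1), red for imiquimod (IMQ) and blue for DMSO, with the mean of the log2 values as a bar; KO is knockout and WT wild type. Il1b and Cxcl2 rise in each genotype, and their knockout DMSO levels lie above those of the other DMSO groups. Krt6a is high in all 5 knockout libraries and rises in Cre-negative and wild-type skin.

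Markers of deep tissue and of body site also differed between the responses. Of skeletal muscle markers in Cre-negative skin 22 of 22 fell, with sums of 1750 and 2860 CPM with imiquimod and 33000, 17600 and 12900 CPM with DMSO, and the difference was higher in the knockout response for 18 of 22, for 5 without the first knockout imiquimod library or with sex in the model, and for 10 or 11 without the first or second Cre-negative imiquimod library. Of the trunk HOX list 8 of 24 fell in Cre-negative skin, where the sums were 131 and 144 CPM with imiquimod and 273, 411 and 293 CPM with DMSO, and 6 were higher in the knockout response, 0 without the first knockout imiquimod library or with sex in the model, and 2 without the third knockout DMSO or the first Cre-negative imiquimod library. How far the depth or site of the sample entered the differences above was not tested.

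**Figure D5:**
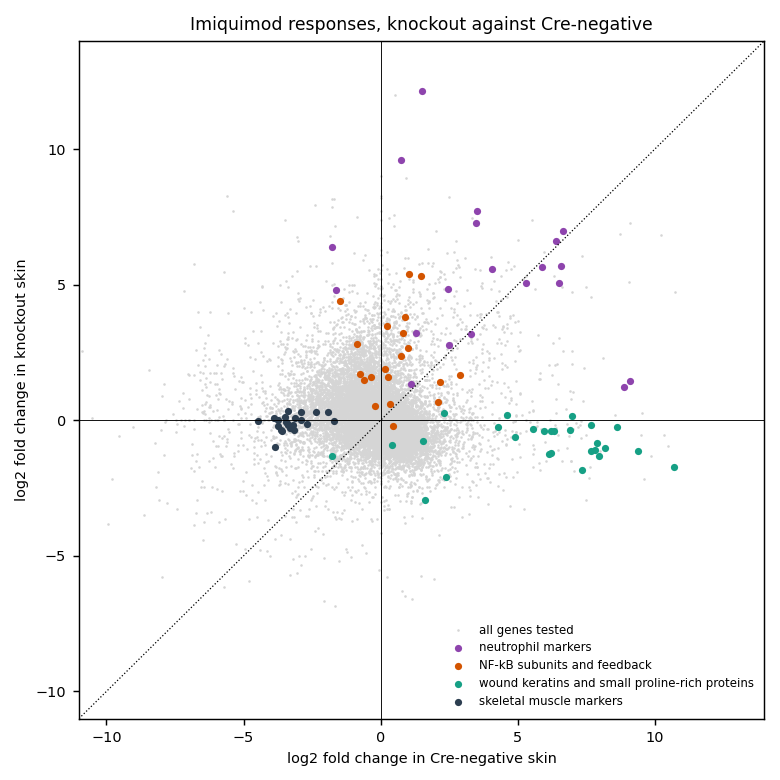
Log2 fold change in knockout skin (vertical) against Cre-negative skin (horizontal) for 16027 genes in grey, with 4 lists coloured and the line of equal change dotted. Wound keratins and small proline-rich proteins mostly lie near or below zero in knockout skin and reach 10.72 in Cre-negative skin, most NF-kB genes lie above the dotted line, and skeletal muscle markers lie below zero in Cre-negative skin and near zero in knockout skin.

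Against wild-type skin the named differences were of the same kinds. Ngp, Nos2, Ifitm6, Ltf and Hhip were higher in the knockout response, Ifitm6 by 11.19 ± 0.94, adjusted p = 8.25e-05. The Ifitm6 difference held in every setting tried. That of Ngp ended without the first wild-type DMSO library (8.56), that of Ltf without the second (9.80), that of Nos2 without the first knockout imiquimod (10.65), the first wild-type imiquimod (11.27) or the second wild-type DMSO library (8.14), and that of Hhip, at most 0.266 CPM in knockout skin, without the second knockout imiquimod (5.25) or first wild-type imiquimod library (9.25). Lce3b, a late cornified envelope protein of wounded epidermis, was lower by -13.25 ± 1.35, adjusted p = 1.27e-04, with 240.1 and 138 CPM in wild-type imiquimod skin and 0.1 and 0 CPM in wild-type DMSO skin; at so few counts that size depends in part on the small count added. Il19, an IL-20 family cytokine of keratinocytes, was lower by -11.97 ± 1.26, adjusted p = 1.49e-04, and Sprr2k, Sprr2b and Sprr2i were lower too. Of the 27 wound genes 25 were lower and 0 higher. Both sets of differences use the same 5 knockout libraries, so they are not independent of each other.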

How the data were processed

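RNA of mouse skin was made into 3′ tag libraries with a QuantSeq FWD kit, per the labels' protocols. The authors deposited raw counts per gene for 56953 genes and 14 libraries. Tools listed, per the submitters' processing notes, are DESeq2, featureCounts and STAR; both GRCm39 and GRCm38 are named, and what each was used for is not. Positions in the count table are on GRCm39. The strand setting and the handling of multimapped reads were not given in the sources used here. Its length column, per the file headers in another unit (bases), was not used.

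The knockout libraries were taken by the title of their count column. Genes were kept with filterByExpr (16027), scaled by TMM and fitted with edgeR 4.0.16 in R 4.3.3 by quasi-likelihood over all 14 libraries, 1 mean per group (6 groups). Adjusted p-values are Benjamini-Hochberg over all genes tested, threshold 0.05, and a standard error is the fold change over the root of its F statistic. Groups at 0 had a floor of 3 counts over the group.

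The genes and the 45 lists (964 entries, 962 found, 918 tested, 49 genes in more than 1 list) were chosen with earlier results of these data known. Genes named are the 10 highest and 10 lowest changes past the threshold without overlap and with at least 5 CPM in the higher group, the 5 highest and lowest of each difference between responses, the 4 members of lowest p in each list, and a set of skin genes. Il33 and the genes of the closing observations were named after their values were seen. Alternatives were DESeq2 1.42.0, voom with quality weights (limma 3.58.1), other scalings and filters, the compared groups alone, a replicate block, a sex term and each library left out. The fit was tested on simulated counts that held no sex, site or single-library effect, so that test does not cover them. Intervals and floors cover counting error only, since the labels name no molecular identifiers to count molecules by. The labels do not say that same-numbered libraries pair, so the main model has no block.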

Additional observations from a re-analysis of the deposited data

Results flagged for a closer look

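These genes are given because their imiquimod responses differed between genotypes by the interaction test of edgeR's quasi-likelihood model (adjusted p under 0.05); values are log2 differences, knockout response minus the other. No explanation was weighed for any of them, and the sexes of the libraries, and markers of skin site and of deep tissue, differed between the groups as given above.

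Against Cre-negative skin, responses lower in knockout skin were measured for Sprr2b -12.44, Defb3 -10.88, Krt16 -7.43, Krt6a -7.36, Tslp -5.89, Il36a -5.54, Krt17 -4.49, Cst6 -3.60, Krt14 -3.43, Il36g -3.27, Krt1 -3.09, S1pr5 -2.03, S100a9 -7.66, S100a8 -7.65, Rps13-ps1 -7.05, Rps15a-ps6 -4.67, Arg1 -4.31, Rps15a-ps7 -3.43, Gpx2 -3.14, Nqo1 -2.52 and Il23a -2.29. Higher responses were measured for Ngp 10.62, Ifitm6 9.88, Ltf 8.89, Ppm1n 5.75, Cxcl10 4.50, Tnf 3.84, Retnlg 3.80, Tlr7 3.37 and Krt15 2.06. Krt15 fell in knockout skin (-3.63), so its positive difference means a larger fall in Cre-negative skin. Some genes had 0 counts in a whole Cre-negative group, so the size of their difference depends on the small count the fit adds and is no bound: Fam3d -11.75, Gml -11.43, Spink12 -11.20 and Il17a -9.36 were lower and Pyy 13.16, Scrg1 13.09, Fam169b 12.59 and Dab1 10.60 higher. Against wild-type skin, higher responses were measured for Ngp 12.84, Nos2 11.28, Ifitm6 11.19, Ltf 10.20 and Hhip 9.29, and lower ones for Lce3b -13.25, Il19 -11.97, Sprr2k -11.62, Sprr2b -11.23 and Sprr2i -11.04. Nos2 and Hhip were at 0 in both wild-type imiquimod libraries and Sprr2k in both wild-type DMSO libraries, so their sizes are no bounds either. Of these, Krt6a, Krt16, Krt17, Krt14, Il36a, Il36g, Tslp, Tlr7, Tnf and Ifitm6 kept the call without any 1 of the 10 knockout and Cre-negative libraries and with sex in the model.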

How the results depend on the processing

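Counts of genes that rose or fell depended most on the first knockout imiquimod library and on sex. When 1 library was left out, the genes that rose with imiquimod in knockout skin numbered 324 to 1389 and those that fell 15 to 423, those higher in the knockout than the Cre-negative response 727 to 2270 and lower 447 to 1475, and those higher than in the wild-type response 1078 to 2466 and lower 819 to 2174; the lowest value was in each case without the first knockout imiquimod library. With a sex term 206 rose and 4 fell, 982 were higher and 487 lower than in Cre-negative skin, and 707 and 435 than in wild-type skin. With library size alone 186 fell, 3650 were higher and 511 lower than in Cre-negative skin, and 3974 and 607 than in wild-type skin. The genes that fell numbered 617 with no filter on low counts, 749 with DESeq2, 78 with the 5 knockout libraries fitted alone and 258 with a block for the replicate number; 1273 were lower than in wild-type skin with those groups alone. The cause was not tested. Replicate numbers are not said to pair samples. Deviations of same-numbered libraries correlated at 0.317 and 0.121 in knockout, -0.0551 and -0.175 in Cre-negative and -0.191 in both wild-type pairs. The wild-type values are equal by construction, as those groups held 2 libraries each. These values do not settle whether libraries pair, and the block left 1005 rises. Of 126 named genes that passed in the knockout response, 57 kept the call without any 1 library, 105 with the block and 32 with the sex term, and 0 reversed. Among the named genes, reversals were of changes that did not pass. The genes that passed were called on the same libraries, so their kept direction is no separate evidence. With a sex term Ccl20 changed by 0.31, Krt10 by 0.26 and Krt6b by 0.12, and the Cxcl2 difference from Cre-negative skin was 0.046. Nedd8 changed by -0.016 with upper-quartile scaling, -0.10 with the block, -0.14 with a sex term and -0.58 to 0.64 with 1 library left out. With 1 library left out, Arg1 ranged from -1.41 to 0.17, Gpx2 from -0.75 to 0.071, Nqo1 from -1.47 to 0.051, Ifit1 from -0.10 to 1.10, Il17a from -2.02 to 0 and Il17f from 0 to 3.55. The Il1b difference from Cre-negative skin was -0.030 with the 18S gene left out and -0.46 to 0.48 with 1 library left out. Low counts limit the interleukin 17 genes, Tlr7 and the interferon list.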

Other observations

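Some changes in knockout skin lay outside every list. Whether their calls held with a library left out or with sex in the model was not looked at. The genes here were chosen after their values were seen, for a known role, from the 12 rises and 10 falls of smallest p among such genes whose groups did not overlap; Cyp4f18, Dmxl2, Napsa, Lurap1l, Tmem45a, Sh2d4a and Nudt17 are not described. Ccrl2, a chemerin-binding receptor of activated myeloid cells, had 67.1 and 35.7 CPM with imiquimod and 1.02, 1.07 and 1.44 CPM with DMSO (adjusted p = 2.64e-05). Itgal, the alpha chain of the leukocyte integrin LFA-1, had 93.5 and 42.7 CPM with imiquimod and 2.04, 2.23 and 1.38 CPM with DMSO, and Coro1a, an actin regulator of leukocytes, 203 and 104 CPM with imiquimod and 5.35, 8.44 and 6.85 CPM with DMSO. Samsn1, an adaptor of immune cells, had 379 and 282 CPM with imiquimod and 5.86, 8.35 and 6.09 CPM with DMSO, and Plek, the protein kinase C substrate of platelets and leukocytes, 521 and 339 CPM with imiquimod and 43.8, 25.8 and 21.9 CPM with DMSO. Pygl, the glycogen phosphorylase of liver and neutrophils, had 595 and 213 CPM with imiquimod and 18.6, 11.6 and 8.37 CPM with DMSO, and F10, coagulation factor X, 112 and 28.1 CPM with imiquimod and 1.02, 1.26 and 0.874 CPM with DMSO. Stfa2l1 and Csta2, cystatins whose near-identical copies share reads, had 321 and 131 CPM with imiquimod and 1.78, 2.72 and 1.41 CPM with DMSO and 142 and 64.5 CPM with imiquimod and 5.09, 3.59 and 4.54 CPM with DMSO. In all of these the first imiquimod library was the higher.

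Among genes that fell, Pla2g2f, a secreted phospholipase of the upper epidermis, had 18.3 and 17.4 CPM with imiquimod and 165, 71.3 and 189.9 CPM with DMSO (adjusted p = 4.77e-04), and Pla2g2d, a related enzyme of dendritic cells, 0.761 and 1.5 CPM with imiquimod and 8.15, 5.63 and 12.4 CPM with DMSO. Liph, a lipase that makes lysophosphatidic acid in the hair follicle, had 6.7 and 8.77 CPM with imiquimod and 48.4, 28.3 and 46.5 CPM with DMSO, and Psapl1, a prosaposin-like protein, 25.1 and 37 CPM with imiquimod and 354, 145 and 230.3 CPM with DMSO. Ptn, the growth factor pleiotrophin, had 0.609 and 0.974 CPM with imiquimod and 5.6, 5.43 and 6.06 CPM with DMSO, and Igfbp2, a binding protein of insulin-like growth factors, 0.913 and 1.24 CPM with imiquimod and 14.3, 6.02 and 8.62 CPM with DMSO.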
